A study of Mus musculus with 9 samples.

Results

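The genes described here are those of the contractile machinery of skeletal muscle: the filaments of the sarcomere, the proteins that anchor them, the calcium handling system that starts contraction, and the enzymes and oxygen carrier that feed it. The list named 45 genes by symbol (ACTA1, NEB, TTN and so on, written here in mouse form as Acta1, Neb and Ttn), and every probe whose gene symbol matched a listed symbol, ignoring case, was taken. This found 35 probes for 28 of the 45 genes among the 26423 probes of the array. The other 17 genes had no matching probe and were not analysed here. They were Myh1, Myh2, Myh4, Myh7, Myh8, Myl1, Myl2, Myl3, Mylpf, Mybpc1, Mybpc2, Myoz1, Myot, Myom1, Ryr1, Pygm and Eno3. No symbol in the probe-to-gene table contained the letter Y, which 16 of the 17 carry, and the list's 11 thick filament genes are all among them. The results therefore cover thin filament, Z-disc, titin, calcium and energy genes, and no myosin.

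RNA came from the shaved back skin of female BALB/c mice treated for 7 days, with 3 one-colour (Cy5) arrays in each of 3 groups. Vanillin skin received imiquimod cream while the mice were given 100 mg/kg vanillin by mouth, per the treatment label. The source label of this group reads IMQ and/or vanillin, and the treatment label was followed throughout. IMQ skin received imiquimod alone. Mock skin received Vaseline cream. Imiquimod is a Toll-like receptor agonist that gives mouse skin a psoriasis-like inflammation, and vanillin is the main aroma compound of vanilla. The labels give no age and do not say whether each array of a group is a different mouse. P-values therefore reflect array-to-array spread alone, part or all of which may be technical. The tissue label reads skin, whereas muscle is named in the extraction text. Both kinds of marker were bright here: 9 epidermal keratinocyte markers lay between the 95.3 and 100.0 percentile of probe intensity, and the 28 muscle genes between the 22.5 and 99.7 percentile, with a median of 90.4. The muscle content of the samples is not known.

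In a striated muscle fibre, calcium released from the sarcoplasmic reticulum binds troponin C. Troponin and tropomyosin then shift on the actin filament and myosin heads can pull. Fast (glycolytic) and slow (oxidative) fibres build this machinery from different paralogues, so that troponin C, troponin I, troponin T and calsequestrin each have a fast and a slow gene. Mouse back skin carries a thin sheet of striated muscle under its fat layer, the panniculus carnosus, which is rich in fast fibres.

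Upstream sequences of 5 genes are shown because they form the fast and slow pairs whose values are set against each other below, with titin as the giant protein of every striated muscle. Each is the 250 bases before the gene start in RefSeq (GRCm38.p6), written 5′ to 3′ on the gene's strand. Tnnc2 (fast troponin C, chr2:164779735-164779984, minus strand) and Tnnc1 (slow and cardiac troponin C, chr14:31208062-31208311, plus strand) form the troponin C pair. Casq1 (fast calsequestrin, chr1:172219896-172220145, minus strand) and Casq2 (slow and cardiac calsequestrin, chr3:102086165-102086414, plus strand) form the calsequestrin pair, and Ttn lies at chr2:76982548-76982797 on the minus strand. Capitals mark matches to the E-box CANNTG, the motif read by MyoD family factors, and to the MEF2 site.
Tnnc2: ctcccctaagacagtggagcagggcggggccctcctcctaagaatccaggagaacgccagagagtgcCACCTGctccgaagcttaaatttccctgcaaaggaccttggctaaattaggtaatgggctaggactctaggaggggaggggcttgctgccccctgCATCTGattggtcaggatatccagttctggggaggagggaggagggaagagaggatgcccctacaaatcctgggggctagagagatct
Tnnc1: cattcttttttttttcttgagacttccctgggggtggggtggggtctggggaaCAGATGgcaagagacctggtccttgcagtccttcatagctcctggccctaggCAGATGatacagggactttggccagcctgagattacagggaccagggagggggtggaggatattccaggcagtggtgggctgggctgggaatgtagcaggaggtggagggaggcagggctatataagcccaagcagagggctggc
Casq1: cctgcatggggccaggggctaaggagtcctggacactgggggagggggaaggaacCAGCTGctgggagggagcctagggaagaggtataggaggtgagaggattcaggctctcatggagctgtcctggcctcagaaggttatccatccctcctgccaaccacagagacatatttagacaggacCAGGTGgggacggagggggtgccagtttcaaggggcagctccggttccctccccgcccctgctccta
Casq2: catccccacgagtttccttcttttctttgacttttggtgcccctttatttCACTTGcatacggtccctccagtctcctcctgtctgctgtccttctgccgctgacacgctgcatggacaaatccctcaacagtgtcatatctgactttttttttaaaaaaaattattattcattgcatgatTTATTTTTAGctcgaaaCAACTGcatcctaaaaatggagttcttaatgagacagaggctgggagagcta
Ttn: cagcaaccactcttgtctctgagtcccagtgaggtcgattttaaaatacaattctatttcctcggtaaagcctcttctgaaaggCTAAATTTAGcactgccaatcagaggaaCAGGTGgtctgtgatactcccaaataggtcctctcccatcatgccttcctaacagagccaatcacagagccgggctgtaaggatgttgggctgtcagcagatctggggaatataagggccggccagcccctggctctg

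Both troponin C genes and both calsequestrin genes held 2 E-boxes in this window, and Casq2 and Ttn also held 1 MEF2 site each. Of the 28 genes, 21 had a promoter among those searched, which left out 1 chromosome of the RefSeq table. For these genes 1 promoter each was taken, whereas the shares of all promoters counted every promoter searched. The shares set side by side are therefore not fully alike. An E-box on either strand stood in 19 of these 21 (90.5%), against 66.2% of the 32851 promoters searched. The MEF2 site, searched by its usual 10-base consensus on both strands, stood in 4 of 21 (19.0%; Xirp2, Ttn, Casq2 and Pvalb), against 2.9% of all promoters. The CArG box read by serum response factor stood in 2 of 21 (9.5%; Acta1 and Ldb3), against 1.5%. The 3 motifs were searched independently of each other and a match describes letters, not binding. Fast and slow genes were both among those with an E-box.

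Differences are log2 fold changes of normalised intensity with their standard error, taken from the brightest probe of each gene, and a gene was called when its limma p-value, adjusted over all 26423 probes, was under 0.05. In IMQ against Mock skin, 11 of the 28 genes fell, 4 rose and 13 were not called. The background was high, since 53.6% of all probes were called in this comparison (24.0% higher and 29.6% lower), and 15 of 28 genes is close to that share. With arrays weighted by their quality the same comparison called 24 of the 28 (7 higher, 17 lower). The median change of the 28 genes was -0.18 (quartiles -0.55 and 0.18), against -0.04 over all probes.

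In Vanillin against IMQ skin, 18 of the 28 genes rose, 2 fell and 8 were not called, where 41.2% of all probes were called, 24.3% higher and 17.0% lower. The median change was 0.42 (quartiles 0.12 and 0.55), against 0.03 over all probes. In Vanillin against Mock skin, 8 rose, 4 fell and 16 were not called. The 8 include Ldb3, counted by its brightest probe although its probes disagreed in direction. Of all probes 26.7% were called in this comparison (11.9% higher and 14.7% lower). The median there was 0.08, against 0.01 over all probes. The comparisons share arrays (IMQ arrays stand in both IMQ against Mock and Vanillin against IMQ, and Mock arrays in both comparisons with Mock skin), so their values are given side by side and are not independent. In whole tissue, fewer muscle fibres and less RNA per fibre cannot be told apart.

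**Figure D1:**
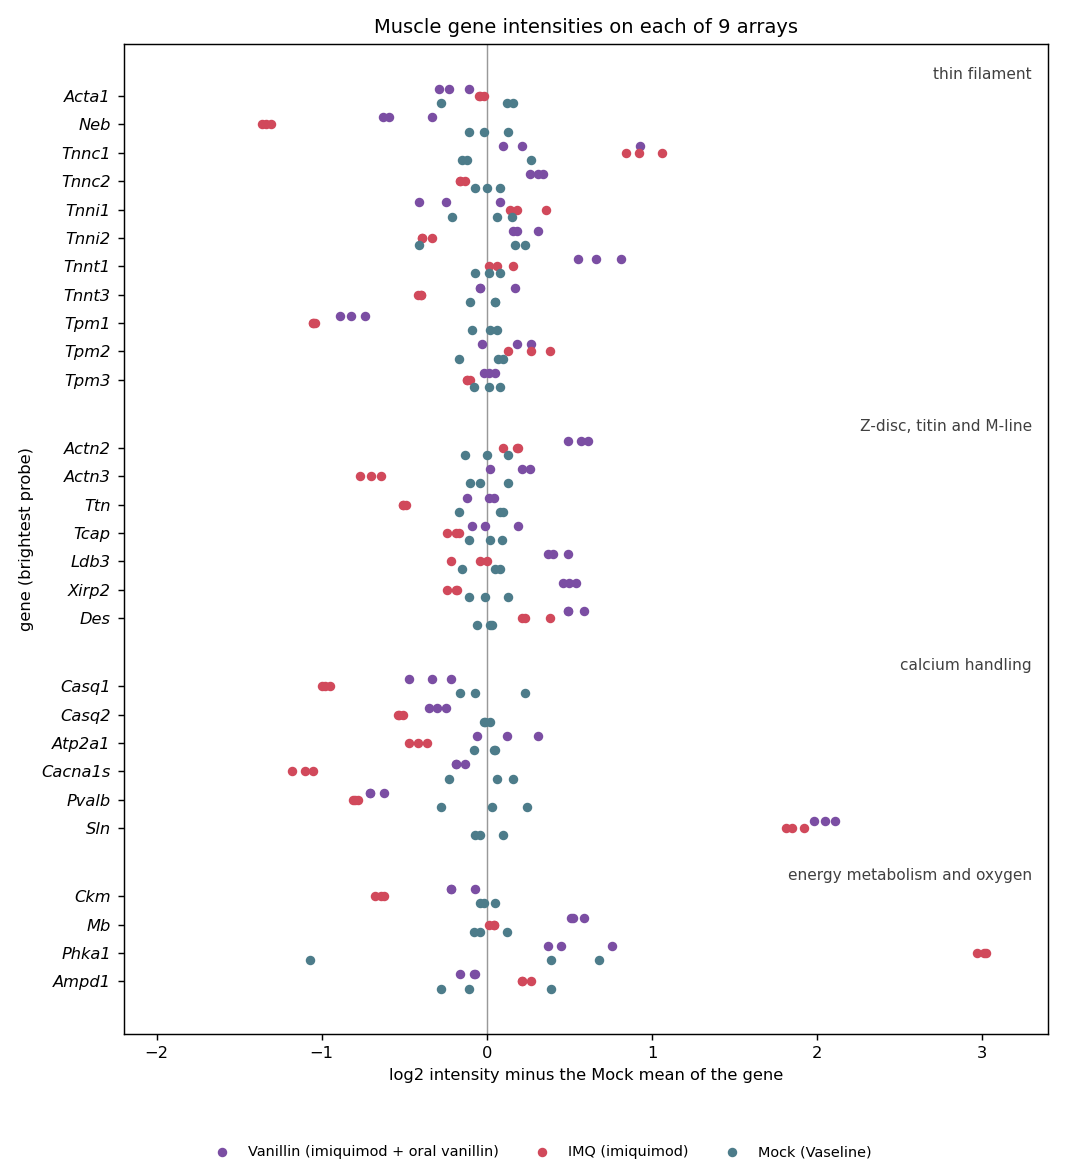
Each point is the intensity of a gene on 1 array, as log2 intensity minus the gene's Mock mean (horizontal axis), for the 28 measured muscle genes in rows grouped by role. Points of the Vanillin arrays are drawn above those of the IMQ arrays and those of the Mock arrays in each row. IMQ points of Neb, Tpm1, Casq1, Cacna1s and Pvalb lie left of all Mock points, and those of Sln, Tnnc1 and Phka1 lie right of them.

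Of the 11 thin filament genes, all measured, Neb, Tpm1 and Tnnt3 fell in IMQ against Mock skin, Tnnc1 rose and 7 were not called. Between Vanillin and IMQ skin 6 rose (Neb, Tnnc2, Tnni2, Tnnt1, Tnnt3 and Tpm1), Tnni1 fell and 4 were not called. Vanillin against Mock skin gave 2 higher (Tnnc2 and Tnnt1) and 2 lower (Neb and Tpm1). Thin filament calls in IMQ against Mock skin (9.09% higher, 27.3% lower) were no more frequent than those of all probes (24.0% and 29.6%). For Vanillin against IMQ skin they were 54.5% and 9.09%, against 24.3% and 17.0% of all probes. For Vanillin against Mock skin they were 18.2% and 18.2%, against 11.9% and 14.7%.

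Neb encodes nebulin, the ruler that runs along the actin filament. It read 12.63, 12.37 and 12.33 on the log2 scale on the Vanillin arrays, 11.65, 11.60 and 11.62 on the IMQ arrays, and 13.09, 12.94 and 12.85 on the Mock arrays. The 3 groups did not overlap, with IMQ lowest and Vanillin between IMQ and Mock. The change was -1.34 ± 0.11 in IMQ against Mock skin (adjusted p = 2.41e-05), 0.82 ± 0.11 in Vanillin against IMQ skin (adjusted p = 0.00144) and -0.52 ± 0.11 in Vanillin against Mock skin (adjusted p = 0.00694). Neb had the most negative change of the 28 genes in IMQ against Mock skin, to 0.40 of the Mock level.

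Tpm1 encodes alpha-tropomyosin, which is spliced into muscle and non-muscle forms. Its brightest probe read 14.94, 15.02 and 14.87 in Vanillin skin, 14.71, 14.71 and 14.72 in IMQ skin, and 15.82, 15.78 and 15.67 in Mock skin. All treated arrays lay below all Mock arrays, by 1.05 ± 0.08 for IMQ (adjusted p = 2.18e-05) and by 0.81 ± 0.08 for Vanillin (adjusted p = 0.00015). Against IMQ skin, Vanillin skin was 0.23 ± 0.08 higher (adjusted p = 0.0465), a call that was lost in 6 of the 9 fits that left out 1 array, with adjusted p up to 0.133. With the mean of the gene's probes in place of the brightest it was 0.05 (adjusted p = 0.729). The gene's 2 other probes differed from the brightest. A probe at the 85.8 percentile changed by -0.43 ± 0.09 in IMQ against Mock skin and by 0.48 ± 0.09 in Vanillin against IMQ skin. On that probe Vanillin against Mock skin was not called, at 0.05 ± 0.09 (adjusted p = 0.722), and the groups overlapped. A dim probe at the 13.8 percentile fell in all 3 comparisons, with -1.21 ± 0.20 in IMQ against Mock, -0.57 ± 0.20 in Vanillin against IMQ (adjusted p = 0.0468) and -1.78 ± 0.20 in Vanillin against Mock skin (adjusted p = 0.00026). Which transcripts the probes read was not analysed here. Of the other tropomyosins, Tpm2 and Tpm3, which is also used in many non-muscle cells, were called in no comparison, with changes between -0.12 and 0.26.

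The 3 troponin subunits come as fast and slow paralogues. Tnnc1, slow and cardiac troponin C, read 11.73, 11.62 and 12.45 in Vanillin skin, 12.44, 12.36 and 12.58 in IMQ skin, and 11.40, 11.79 and 11.37 in Mock skin. IMQ arrays were all above Mock arrays, by 0.94 ± 0.22 (adjusted p = 0.00578), and the Vanillin arrays were spread over both ranges, so that Vanillin against IMQ skin was not called (-0.52 ± 0.22, adjusted p = 0.0804). Without Vanillin array 3, the high one, that change was -0.78 (adjusted p = 0.0035). Tnnc2, its fast counterpart, read 16.05, 16.02 and 15.97 in Vanillin skin, 15.55, 15.55 and 15.58 in IMQ skin, and 15.64, 15.71 and 15.79 in Mock skin. The Vanillin arrays were the highest, 0.45 ± 0.08 above IMQ (adjusted p = 0.00326) and 0.30 ± 0.08 above Mock (adjusted p = 0.0206), and IMQ against Mock skin was not called (-0.16 ± 0.08, adjusted p = 0.121). The call against Mock was lost without Vanillin array 1, Vanillin array 2 or Mock array 2, with adjusted p up to 0.0642.

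Troponin I is the subunit that holds actin and myosin apart at rest. Tnni1, the slow form, read 11.27, 11.11 and 11.60 in Vanillin skin, 11.66, 11.70 and 11.88 in IMQ skin, and 11.31, 11.67 and 11.58 in Mock skin. Vanillin arrays lay just below IMQ arrays, by 0.42 ± 0.15 (adjusted p = 0.0493), but the call was lost in 7 of the 9 fits that left out 1 array, with adjusted p up to 0.158. Tnni2, the fast form, read 16.54, 16.41 and 16.39 in Vanillin skin, 15.84, 15.90 and 15.84 in IMQ skin, and 16.40, 16.46 and 15.82 in Mock skin. Mock array 3 stood with the IMQ arrays and apart from the other Mock arrays. The change in IMQ against Mock skin was -0.37 ± 0.16 (adjusted p = 0.0796) with this array and -0.57 (adjusted p = 0.00176) without it. Vanillin against IMQ skin gave 0.59 ± 0.16 (adjusted p = 0.0183), a call lost without Vanillin array 1, IMQ array 1 or IMQ array 3, with adjusted p up to 0.0600.

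Troponin T ties the complex to tropomyosin. Tnnt3, the fast form, read 15.73, 15.73 and 15.94 in Vanillin skin, 15.37, 15.37 and 15.35 in IMQ skin, and 15.67, 15.82 and 15.82 in Mock skin. IMQ arrays stood alone at the bottom, 0.41 ± 0.09 below Mock (adjusted p = 0.00483), and Vanillin skin was 0.44 ± 0.09 above IMQ skin (adjusted p = 0.00632) and overlapped Mock skin. Tnnt1, the slow form, read 10.41, 10.26 and 10.15 in Vanillin skin, 9.66, 9.76 and 9.61 in IMQ skin, and 9.53, 9.61 and 9.68 in Mock skin. Here the Vanillin arrays stood alone at the top, 0.60 ± 0.09 above IMQ (adjusted p = 0.00253) and 0.67 ± 0.09 above Mock (adjusted p = 0.000983), while IMQ against Mock skin was not called (0.07 ± 0.09). Acta1, the alpha-actin of skeletal muscle, read between 16.07 and 16.52 on the 9 arrays. It was called in no comparison, with changes of -0.03 ± 0.12, -0.17 ± 0.12 and -0.21 ± 0.12 in IMQ against Mock, Vanillin against IMQ and Vanillin against Mock skin. Mock array 1 was the lowest Mock array, and without it the last of these was -0.35 (adjusted p = 0.0138).

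Of the 10 genes of the Z-disc, titin and M-line, 7 were measured. In IMQ against Mock skin Actn3 and Ttn fell, Des rose and 4 were not called. Between Vanillin and IMQ skin 6 rose and Tcap (telethonin, which caps titin at the Z-disc) was not called, at 0.23 ± 0.10 (adjusted p = 0.09), though it was without Vanillin array 3 (0.29, adjusted p = 0.0417). In Vanillin against Mock skin 4 rose (Actn2, Ldb3, Xirp2 and Des) and 3 were not called. Ldb3 is counted here by its brightest probe, but its probes disagreed in direction, as given below. Of these 7 genes 14.3% were called higher and 28.6% lower in IMQ against Mock skin, against 24.0% and 29.6% of all probes. For Vanillin against IMQ skin the shares were 85.7% and 0.00%, against 24.3% and 17.0% of all probes. For Vanillin against Mock skin they were 57.1% and 0.00%, against 11.9% and 14.7%.

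Actn3 encodes the alpha-actinin of fast fibres, which cross-links actin at the Z-disc. It read 11.81, 11.86 and 11.62 in Vanillin skin, 10.90, 10.96 and 10.83 in IMQ skin, and 11.73, 11.50 and 11.56 in Mock skin. IMQ arrays lay 0.70 ± 0.10 below Mock (adjusted p = 0.000477), and Vanillin arrays lay 0.86 ± 0.10 above IMQ (adjusted p = 0.000981) and overlapped Mock. Actn2, the alpha-actinin of all striated fibres, read 15.29, 15.17 and 15.25 in Vanillin skin, 14.87, 14.78 and 14.86 in IMQ skin, and 14.81, 14.55 and 14.68 in Mock skin. It was highest on the Vanillin arrays, by 0.40 ± 0.09 against IMQ (adjusted p = 0.00965) and 0.56 ± 0.09 against Mock (adjusted p = 0.00224), and IMQ against Mock skin was not called (0.16 ± 0.09).

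Ttn, the spring that spans the sarcomere, read 15.50, 15.34 and 15.47 in Vanillin skin, 14.95, 14.97 and 14.95 in IMQ skin, and 15.29, 15.56 and 15.54 in Mock skin. The IMQ arrays were below all others, with -0.51 ± 0.10 in IMQ against Mock skin (adjusted p = 0.00242) and 0.48 ± 0.10 in Vanillin against IMQ skin (adjusted p = 0.0061). Xirp2, an actin-binding protein of the muscle attachment sites, read 14.85, 14.93 and 14.89 in Vanillin skin, 14.21, 14.20 and 14.15 in IMQ skin, and 14.52, 14.38 and 14.28 in Mock skin. Vanillin arrays were highest, 0.70 ± 0.09 above IMQ (adjusted p = 0.00126) and 0.50 ± 0.09 above Mock (adjusted p = 0.003). IMQ against Mock skin was not called (-0.20 ± 0.09, adjusted p = 0.0748), but was without Mock array 3 (-0.26, adjusted p = 0.0411). Des encodes desmin, the intermediate filament that links neighbouring Z-discs, and read 14.16, 14.06 and 14.06 in Vanillin skin, 13.78, 13.95 and 13.80 in IMQ skin, and 13.51, 13.59 and 13.60 in Mock skin. The 3 groups did not overlap, in the order Vanillin, IMQ, Mock. Its change of 0.28 ± 0.08 in IMQ against Mock skin (adjusted p = 0.0218) was lost without IMQ array 2 (adjusted p = 0.0916), and that of 0.25 ± 0.08 in Vanillin against IMQ skin (adjusted p = 0.042) in 6 of 9 fits that left out 1 array, with adjusted p up to 0.154. Vanillin against Mock skin gave 0.53 ± 0.08 (adjusted p = 0.00197).

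Ldb3 encodes a PDZ and LIM protein of the Z-disc with several splice forms, and its 4 probes did not move together. The brightest read 12.58, 12.46 and 12.49 in Vanillin skin, 12.05, 11.87 and 12.09 in IMQ skin, and 12.17, 11.94 and 12.14 in Mock skin. On this probe Vanillin skin was 0.51 ± 0.10 above IMQ (adjusted p = 0.00537) and 0.42 ± 0.10 above Mock (adjusted p = 0.0132), the call against Mock being lost without Mock array 2 (adjusted p = 0.0517). A probe at the 64.2 percentile read 10.46, 10.49 and 10.38 in Vanillin skin, 9.80, 9.88 and 9.65 in IMQ skin, and 11.47, 11.55 and 11.47 in Mock skin. There Mock arrays were the highest, and the changes were -1.72 ± 0.09 in IMQ against Mock skin (adjusted p = 3.38e-06), 0.67 ± 0.09 in Vanillin against IMQ skin (adjusted p = 0.00155) and -1.05 ± 0.09 in Vanillin against Mock skin (adjusted p = 5.97e-05). In Vanillin against Mock skin the gene's other 2 probes gave 0.51 ± 0.10 at the 70.1 percentile and -0.45 ± 0.10 at the 15.8 percentile. With the mean of its 4 probes the change against Mock turned to -0.14 (adjusted p = 0.23), so no direction is given for Ldb3 in that comparison.

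All 6 measured calcium handling genes, of 7 listed, were called in IMQ against Mock skin: 5 fell and Sln rose. Of all probes 53.6% were called in this comparison, 24.0% higher and 29.6% lower. Between Vanillin and IMQ skin 4 rose (Casq1, Casq2, Atp2a1 and Cacna1s), and Pvalb and Sln were not called. Vanillin against Mock skin gave 1 higher (Sln), 2 lower (Casq2 and Pvalb) and 3 not called. The shares of all probes were 24.3% higher and 17.0% lower in Vanillin against IMQ skin, and 11.9% and 14.7% in Vanillin against Mock skin.

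Sln encodes sarcolipin, a small membrane peptide that binds the sarcoplasmic calcium pump and uncouples its ATP use from transport. It read 11.13, 11.20 and 11.26 in Vanillin skin, 11.07, 11.00 and 10.96 in IMQ skin, and 9.08, 9.11 and 9.25 in Mock skin. All 6 arrays of imiquimod-treated skin stood far above all 3 Mock arrays. The change was 1.86 ± 0.08 in IMQ against Mock skin (3.63-fold, adjusted p = 1.61e-06) and 2.05 ± 0.08 in Vanillin against Mock skin (4.14-fold, adjusted p = 1.1e-06). Vanillin and IMQ skin were not called apart, with a difference of 0.19 ± 0.08 (adjusted p = 0.102).

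Atp2a1, the calcium pump of fast fibres on which sarcolipin acts, went the other way in IMQ skin. It read 16.32, 16.13 and 15.95 in Vanillin skin, 15.54, 15.59 and 15.65 in IMQ skin, and 16.06, 16.05 and 15.93 in Mock skin. The IMQ arrays were below all others, by 0.42 ± 0.11 against Mock (adjusted p = 0.00948), and Vanillin skin was 0.54 ± 0.11 above IMQ (adjusted p = 0.00545). Cacna1s, the voltage sensor of the transverse tubule, read 11.26, 11.20 and 11.20 in Vanillin skin, 10.29, 10.34 and 10.21 in IMQ skin, and 11.55, 11.45 and 11.16 in Mock skin. IMQ arrays again stood apart at the bottom, with -1.10 ± 0.11 in IMQ against Mock skin (adjusted p = 7.18e-05) and 0.94 ± 0.11 in Vanillin against IMQ skin (adjusted p = 0.00105).

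The calsequestrins, which store calcium in the sarcoplasmic reticulum, fell in IMQ against Mock skin as both the fast and the slow form. Casq1 read 13.28, 13.17 and 13.03 in Vanillin skin, 12.52, 12.55 and 12.50 in IMQ skin, and 13.73, 13.43 and 13.34 in Mock skin. The groups did not overlap, with IMQ lowest, and the changes were -0.98 ± 0.12 in IMQ against Mock skin (adjusted p = 0.000194) and 0.64 ± 0.12 in Vanillin against IMQ skin (adjusted p = 0.0043). Its other probe gave -1.48 ± 0.12 and 0.56 ± 0.12, and on that probe Vanillin skin was also below Mock skin (-0.92 ± 0.12, adjusted p = 0.000582), which the brightest probe did not call (-0.34 ± 0.12, adjusted p = 0.0635, or -0.42 with adjusted p = 0.0444 without Mock array 3). Casq2 read 11.75, 11.85 and 11.80 in Vanillin skin, 11.59, 11.56 and 11.57 in IMQ skin, and 12.09, 12.12 and 12.08 in Mock skin. The groups did not overlap here either, and the change in IMQ against Mock skin was -0.52 ± 0.07 (adjusted p = 0.000448). The calls of Casq2 in Vanillin against IMQ skin (0.22 ± 0.07, adjusted p = 0.0383) and in Vanillin against Mock skin (-0.30 ± 0.07, adjusted p = 0.0164) were lost in 6 and 2 of 9 fits that left out 1 array, the 2 being those without Vanillin array 1 or Mock array 2.

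Pvalb encodes parvalbumin, the soluble calcium buffer of fast fibres in rodents. It read 11.96, 11.96 and 12.05 in Vanillin skin, 11.86, 11.89 and 11.87 in IMQ skin, and 12.39, 12.70 and 12.91 in Mock skin. All 6 arrays of imiquimod-treated skin were below the Mock arrays, by 0.79 ± 0.13 for IMQ (adjusted p = 0.00085) and by 0.68 ± 0.13 for Vanillin (adjusted p = 0.00427). Vanillin against IMQ skin gave 0.12 ± 0.13 (adjusted p = 0.485), with a 95% interval from -0.17 to 0.40, so Pvalb was the fast fibre gene that was not called in that comparison.

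Of the 6 energy and oxygen genes, 4 were measured. Ckm, the muscle creatine kinase that buffers ATP, read 16.03, 16.03 and 16.18 in Vanillin skin, 15.57, 15.63 and 15.61 in IMQ skin, and 16.21, 16.30 and 16.23 in Mock skin. IMQ arrays were lowest, 0.64 ± 0.08 below Mock (adjusted p = 0.000231), and Vanillin arrays were 0.48 ± 0.08 above IMQ (adjusted p = 0.00308). Mb, the oxygen-binding myoglobin of oxidative fibres, read 15.25, 15.33 and 15.26 in Vanillin skin, 14.78, 14.78 and 14.75 in IMQ skin, and 14.86, 14.70 and 14.66 in Mock skin. Only the Vanillin arrays stood apart, 0.51 ± 0.08 above IMQ (adjusted p = 0.00275) and 0.54 ± 0.08 above Mock (adjusted p = 0.00149). A dim probe of Mb at the 30.0 percentile was called in no comparison, and with the mean of both probes these changes were 0.20 (adjusted p = 0.127) and 0.11 (adjusted p = 0.442).

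Phka1, a regulatory subunit of the kinase that switches on glycogen breakdown, was the dimmest of the 28 genes, at the 22.5 percentile. It read 6.39, 6.70 and 6.31 in Vanillin skin, 8.91, 8.96 and 8.95 in IMQ skin, and 4.87, 6.33 and 6.62 in Mock skin. IMQ arrays stood alone at the top while Mock array 1 stood well below the other Mock arrays. The change was 3.0 ± 0.38 in IMQ against Mock skin (7.98-fold, adjusted p = 0.000269) and -2.48 ± 0.38 in Vanillin against IMQ skin (adjusted p = 0.00238). With the dimmest 25% of probes left out Phka1 was not tested. Ampd1, the muscle AMP deaminase, was called in no comparison, with 0.23 ± 0.15 in IMQ against Mock skin and -0.34 ± 0.15 in Vanillin against IMQ skin. Without Mock array 3, which read 11.14 against 10.47 and 10.64 on the other Mock arrays, both were called, at 0.42 (adjusted p = 0.00686) and -0.34 (adjusted p = 0.016).

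**Figure D2:**
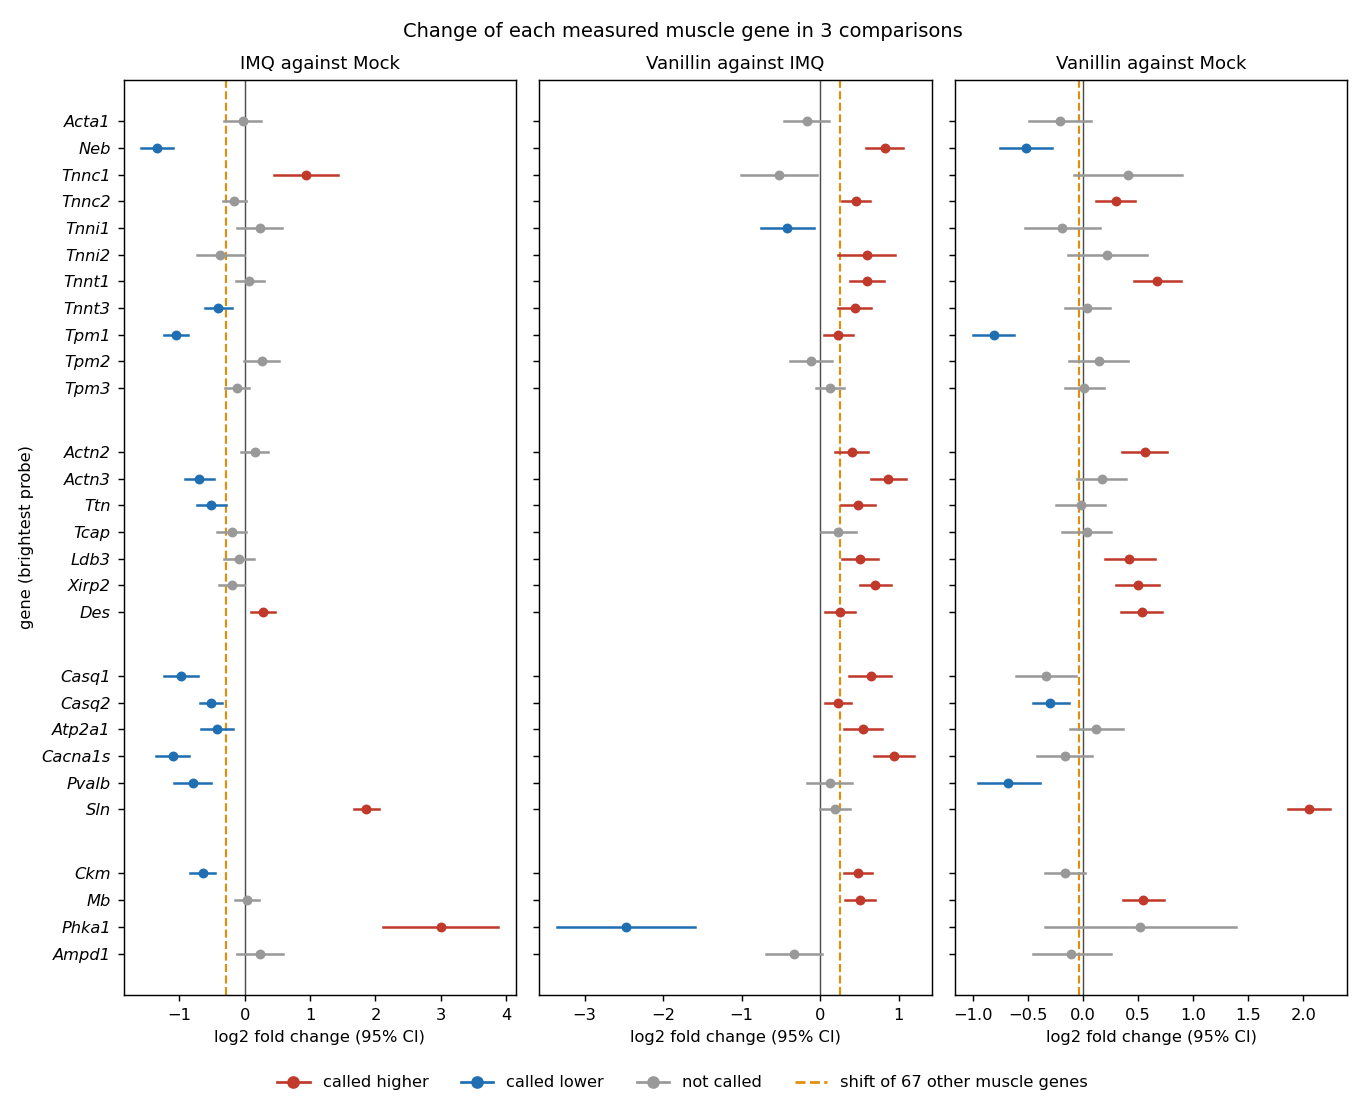
Points are log2 fold changes and bars their 95% intervals for the 28 measured genes (rows, grouped by role) in IMQ against Mock, Vanillin against IMQ and Vanillin against Mock skin, each panel with its own scale. The dashed line is the median shift of 67 other muscle genes, at -0.28, 0.25 and -0.04, and genes such as Sln at 1.86, Neb at -1.34 and Phka1 at 3.0 in IMQ against Mock skin lie far from it.

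Fast and slow fibre genes were set against each other with the 7 measured of 14 fast genes (Actn3, Tnnc2, Tnni2, Tnnt3, Atp2a1, Casq1 and Pvalb) and the 5 measured of 9 slow genes (Tnnc1, Tnni1, Tnnt1, Tpm3 and Casq2). In IMQ against Mock skin 5 of 7 fast genes fell and 2 were not called (Tnnc2 and Tnni2), with a median change of -0.42. Of the 5 slow genes Tnnc1 rose, Casq2 fell and 3 were not called, with a median of 0.07. Of all probes 24.0% were called higher and 29.6% lower in this comparison, 24.3% and 17.0% in Vanillin against IMQ skin. In Vanillin against Mock skin these shares were 11.9% and 14.7%. In Vanillin against IMQ skin 6 of 7 fast genes rose (median 0.54), while of the slow genes Tnnt1 and Casq2 rose, Tnni1 fell and 2 were not called (median 0.13). In Vanillin against Mock skin fast genes gave 1 higher, 1 lower and 5 not called (median 0.12), and slow genes 1 higher, 1 lower and 3 not called (median 0.01).

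The array values show the same split. As the median over the fast genes of log2 intensity minus each gene's Mock mean, the Vanillin arrays read 0.21, 0.12 and 0.03, the IMQ arrays -0.48, -0.43 and -0.42, and the Mock arrays 0.04, 0.04 and -0.04. For the slow genes the Vanillin arrays read 0.05, -0.03 and 0.08, the IMQ arrays 0.05, 0.15 and 0.01, and the Mock arrays -0.08, 0.08 and 0.00. The IMQ arrays were thus below all others for fast genes and overlapped them for slow genes. The difference between the median log2 level of fast and of slow genes was 3.47 to 3.71 on the IMQ arrays and 3.92 to 4.24 on the Mock arrays, a shift of -0.51 in IMQ against Mock skin. On the Vanillin arrays it was 4.0 to 4.14, a shift of 0.47 in Vanillin against IMQ skin and -0.04 in Vanillin against Mock skin. The pooled SD between arrays of this difference was 0.13. The lists were chosen with results known, so these shifts carry no test. With Tpm3 left out of the slow list they were -0.49, 0.58 and 0.08. The medians of uncentred levels fell on different genes on different arrays. On IMQ array 1 they fell on Tnnt3 and Tnni1, and on Mock array 1 on Tnnc2 and Tnnc1. With each gene first centred on its Mock mean, the fast minus slow shifts were -0.53, 0.60 and 0.07.

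The fast and slow lists also differed in brightness, the fast genes having a median intensity percentile of 98.7 and the slow genes of 77.1. The 13 of the 28 genes at or above the 95th percentile had a median change of -0.20 in IMQ against Mock skin and 0.45 in Vanillin against IMQ skin, against 0.07 and 0.22 for the 15 dimmer genes. The part of brightness in the fast and slow difference was not tested. Within pairs, the fast calsequestrin (87.9 percentile) and the slow one (77.1 percentile) both fell in IMQ against Mock skin, whereas of the troponin C pair the slow gene (78.5 percentile) rose and the fast one (98.8 percentile) was not called. Neither the fast (99.3 percentile) nor the slow (74.2 percentile) troponin I gene was called there. Of the troponin T pair the fast gene (98.7 percentile) fell and the slow one (56.3 percentile) was not called.

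**Figure D3:**
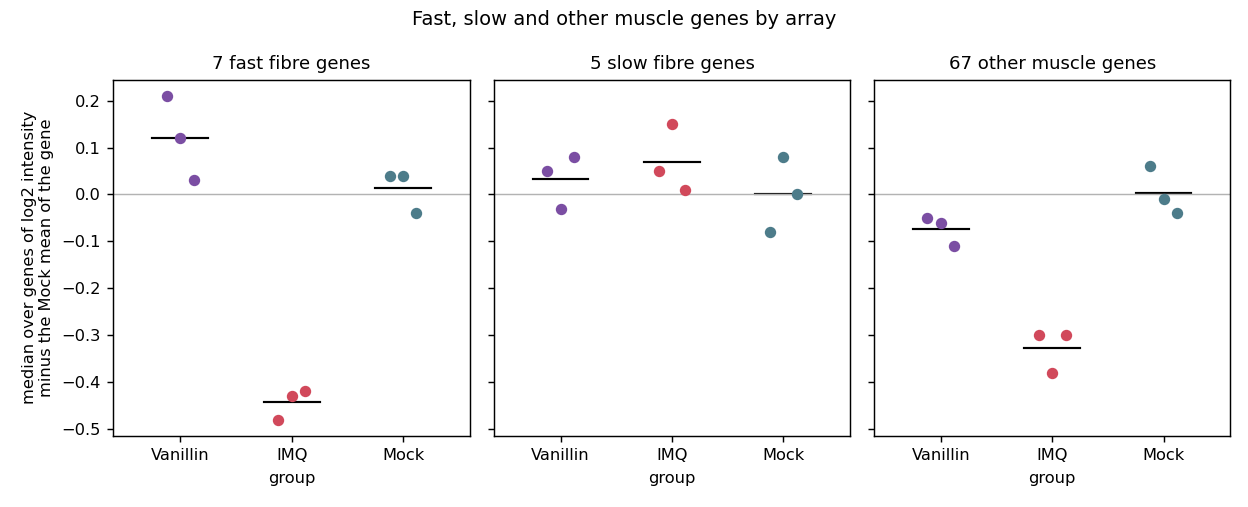
Each point is 1 array and each bar a group mean. The vertical axis is the median over genes of log2 intensity minus the gene's Mock mean, for 7 fast fibre genes, 5 slow fibre genes and 67 other muscle genes. IMQ arrays lie between -0.48 and -0.42 for fast genes, between 0.01 and 0.15 for slow genes, and between -0.38 and -0.30 for other muscle genes.

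Whether the 28 genes followed a common shift was described with 67 other muscle genes (of 86 listed) that are not among them. Their probes ranged from the 5.7 to the 98.5 percentile, and some were noisy, such as Chrne with a standard error of 0.56. Whether muscle alone expressed them in this tissue was not tested, so their shift is not a measure of muscle content. The 67 genes gave 15 higher, 31 lower and 21 not called in IMQ against Mock skin (median -0.28). In Vanillin against IMQ skin they gave 30 higher, 4 lower and 33 not called (median 0.22). In Vanillin against Mock skin they gave 14 higher, 10 lower and 43 not called (median -0.09). Of all probes 24.0%, 24.3% and 11.9% were called higher and 29.6%, 17.0% and 14.7% lower, in the same order of comparisons. On single arrays the median of the 67 genes minus the Mock means was -0.05, -0.06 and -0.11 in Vanillin skin, -0.30, -0.38 and -0.30 in IMQ skin, and 0.06, -0.01 and -0.04 in Mock skin. For the 28 genes the same quantity was 0.05, 0.11 and 0.06 in Vanillin skin, -0.17, -0.20 and -0.15 in IMQ skin, and -0.02, 0.03 and -0.01 in Mock skin. In both sets the 3 IMQ arrays were the lowest.

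Each array's median log2 level over the 67 genes was then subtracted and the fit repeated. This median moved by -0.04, 0.00 and -0.04 between the groups, so the fit removed little of the change of the same genes and its calls are not departures from their shift. Of the 28 genes, 3 were called higher and 9 lower in IMQ against Mock skin, where 43.8% of all probes were called (21.1% higher, 22.7% lower). Vanillin against IMQ skin had 11 higher and 1 lower (27.4% of all probes called, 15.9% higher and 11.4% lower), and Vanillin against Mock skin 6 higher and 2 lower (17.6% of all probes called, 8.60% higher and 8.98% lower). With the dimmest 25% of probes left out, 27 genes were tested and the same fit gave 5 higher and 8 lower, 4 higher and 5 lower, and 5 higher and 7 lower, in the same order of comparisons. With each of the 67 genes first centred on its own mean, a choice made after seeing the data, the shift was -0.28, 0.25 and -0.04. Against this shift the 28 genes gave 10 above and 8 below in IMQ against Mock skin (55.1% of all probes called, 39.1% above and 16.0% below). They gave 6 above and 5 below in Vanillin against IMQ skin (42.6%, with 8.61% above and 33.9% below) and 8 above and 4 below in Vanillin against Mock skin (25.7%, with 12.7% above and 13.0% below). The balance of higher and lower calls therefore depended, in all 3 comparisons, on how the median was taken or on which probes entered it. Counts of calls with the uncentred median also moved by over 1.5 times when 1 array was left out. For Vanillin against IMQ skin the count was 6 without Vanillin array 1 or IMQ array 2 and 5 without IMQ array 1 or IMQ array 3, against 12 with all arrays. For Vanillin against Mock skin it was 5 without Vanillin array 3 or Mock array 2 and 4 without Mock array 3, against 8 with all arrays.

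Against the centred shift, Neb, Tpm1, Actn3, Casq1, Casq2, Cacna1s, Pvalb and Ckm were called lower and Tnnc1, Sln and Phka1 higher in IMQ against Mock skin. The uncentred median gave the same calls for these genes. As it removed little of the shift, those calls are no separate evidence of a departure from it. From the centred shift, Sln departed by 2.14 ± 0.08 (adjusted p = 4.78e-07), Tnnc1 by 1.22 ± 0.22 (adjusted p = 0.0017) and Neb by -1.06 ± 0.11 (adjusted p = 9.56e-05). On the same scale Tnni1 (0.51 ± 0.15), Tnnt1 (0.35 ± 0.09), Tpm2 (0.54 ± 0.13), Actn2 (0.44 ± 0.10), Des (0.56 ± 0.09), Mb (0.32 ± 0.10) and Ampd1 (0.51 ± 0.14) were called above it, while the fast genes Tnnc2, Tnni2, Tnnt3 and Atp2a1 were not called, with departures between -0.14 and 0.13. Of the 7 fast genes, 3 were below the centred shift and none above it (4 not called), and of the 5 slow genes 3 were above it and 1 below it. In Vanillin against IMQ skin Cacna1s (0.69 ± 0.13), Actn3 (0.61 ± 0.11), Neb (0.57 ± 0.11), Xirp2 (0.45 ± 0.10), Casq1 (0.39 ± 0.13) and Tnnt1 (0.35 ± 0.09) rose by more than the centred shift. Phka1 (-2.72 ± 0.37), Tnnc1 (-0.77 ± 0.22), Tnni1 (-0.67 ± 0.15), Ampd1 (-0.58 ± 0.14) and Acta1 (-0.42 ± 0.12) were below it.

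The other muscle genes can be read by role, with the lists named in full only through their largest called changes. Of all probes 24.0% were called higher and 29.6% lower in IMQ against Mock skin, and 24.3% and 17.0% in Vanillin against IMQ skin. In the same order, the sarcomere and chaperone list had 28.6% and 38.1%, then 52.4% and 0.00%. The excitation-contraction list had 6.25% and 56.2%, then 37.5% and 0.00%. Of 21 measured sarcomere and chaperone genes (32 listed), 6 rose and 8 fell in IMQ against Mock skin, and 11 rose and none fell in Vanillin against IMQ skin. The largest in IMQ against Mock skin were Pdlim3, a Z-disc protein (-1.49 ± 0.09), Unc45b, a myosin chaperone (-1.13 ± 0.11), and Fhl1, a LIM protein (-1.10 ± 0.17). For Vanillin against IMQ skin they were Trim54, a ubiquitin ligase of the sarcomere (1.11 ± 0.11), Smtnl1, a smoothelin-like protein (1.08 ± 0.12), and Unc45b (1.02 ± 0.11). Of 16 excitation-contraction genes (18 listed), 1 rose and 9 fell in IMQ against Mock skin, among them Stac3 (-1.18 ± 0.12), Cacng1 (-1.16 ± 0.19) and Cacnb1 (-1.05 ± 0.09), all partners of the Cacna1s channel. Of these 16, 6 rose and none fell in Vanillin against IMQ skin, led by Cacng1 (0.99 ± 0.19), Scn4a, the muscle sodium channel (0.83 ± 0.12), and Stac3 (0.79 ± 0.12).

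Of 15 measured energy genes (19 listed), 4 rose and 8 fell in IMQ against Mock skin, led by the glycolytic Pgam2 (-1.27 ± 0.09), the adenylate kinase Ak1 (-1.06 ± 0.11) and Gpd1 (-0.79 ± 0.09). Of the same 15 genes, 7 rose and 1 fell in Vanillin against IMQ skin, led by Pgam2 (0.90 ± 0.09), Art1 (0.84 ± 0.11) and Pfkm (0.83 ± 0.14). Of 15 genes of the dystrophin complex and neuromuscular junction (17 listed), 4 rose and 6 fell in IMQ against Mock skin, with Dmd (dystrophin) at -1.41 ± 0.11, Sgca at -0.96 ± 0.14 and Dok7 at 0.94 ± 0.17. In Vanillin against IMQ skin 6 rose and 3 fell, with Rapsn, which clusters acetylcholine receptors, at 0.95 ± 0.14, Sgca at 0.94 ± 0.14 and Dok7 at -0.76 ± 0.17; without IMQ array 3 the list had 4 calls there rather than 9. This list alone had a positive median in IMQ against Mock skin (0.26) and a negative one in Vanillin against IMQ skin (-0.27) among the 4 lists of other muscle genes. The balance of its calls was the opposite in both comparisons. Noisy genes that were not called entered these medians, such as Chrne (1.24 ± 0.56) and Musk (0.89 ± 0.55) in IMQ against Mock skin.

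Other cell types also differed between the groups, and their part in the muscle gene values was not tested. Their counts stand beside 24.0% of all probes called higher and 29.6% lower in IMQ against Mock skin, and 24.3% and 17.0% in Vanillin against IMQ skin. Adipocyte markers (10 of 10 measured) gave 8 lower and none higher in IMQ against Mock skin and 7 higher, 1 lower in Vanillin against IMQ skin, with Adipoq at -1.55 ± 0.10 and 0.81 ± 0.10. Their summed intensity was 244000 to 255000 in Vanillin skin, 222000 to 226000 in IMQ skin and 326000 to 350000 in Mock skin. Smooth muscle markers (5 of 8 measured) gave 4 lower in IMQ against Mock skin and 4 higher in Vanillin against IMQ skin, with Acta2 at -0.68 ± 0.14 and 0.49 ± 0.14, and summed to 86200 to 94100 in Vanillin skin, 65300 to 69200 in IMQ skin and 101000 to 124000 in Mock skin. The 28 muscle genes summed to 813000 to 838000 in Vanillin skin, 650000 to 654000 in IMQ skin and 784000 to 834000 in Mock skin. The smooth muscle count in Vanillin against IMQ skin was 2 without Vanillin array 1, IMQ array 1 or IMQ array 3. Muscle, fat and smooth muscle sums were thus all lowest on the IMQ arrays. So were fibroblast sums (223000 to 237000 in Vanillin, 217000 to 222000 in IMQ and 291000 to 333000 in Mock skin). Endothelial sums (12500 to 13100, 10200 to 10600 and 15700 to 16600, in the same order) were lowest there too. The same held for Schwann cell and nerve sums (19200 to 20300, 16500 to 16800 and 32200 to 33600). Keratinocyte, macrophage, cardiac, myogenic and developing muscle sums were not lowest there. In Vanillin skin the fat and smooth muscle sums were below those of Mock skin, and the muscle sum overlapped it. Sums of linear intensity weigh the brightest probes most. Those were Tpm3 (99.7 percentile) for muscle, Fabp4 (99.5 percentile) for fat, and Acta2 and Smtn (98.8 and 97.3 percentile) for smooth muscle. Fabp4 was the 1 fat marker called lower in Vanillin against IMQ skin (-0.50 ± 0.14).

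Epidermal keratinocyte markers (9 of 9) gave 5 higher and none lower in IMQ against Mock skin, led by Krt1 at 3.43 ± 0.12, and had a median change of 0.04 in Vanillin against IMQ skin. They summed to 1620000 to 1710000 in Vanillin skin, 1610000 to 1640000 in IMQ skin and 1110000 to 1190000 in Mock skin. Fibroblast markers (8 of 8) gave 2 higher and 6 lower in IMQ against Mock skin and 3 higher, 1 lower in Vanillin against IMQ skin. In IMQ against Mock skin, endothelial markers (6 of 6) gave 4 lower, Schwann cell and nerve markers (3 of 6 measured) 3 lower, and macrophage markers (6 of 6) 4 higher and 2 lower. In Vanillin against IMQ skin, endothelial markers gave 2 higher and none lower, and Schwann cell and nerve markers 2 higher and none lower. Macrophage markers gave 1 higher and 1 lower there. The 2 calls among 6 endothelial and the 2 among 6 macrophage markers were no more than the 41.2% of all probes called in that comparison (24.3% higher, 17.0% lower). For IMQ against Mock skin the shares of all probes were 24.0% higher and 29.6% lower. Cardiac muscle shares slow troponin C and Casq2 with slow fibres, but neither gene is among the cardiac markers used here. These markers had 5 of 9 genes measured and summed to 3450 to 4860 over all arrays. Of these Nppb rose (0.87 ± 0.11) and Tnnt2 (-0.83 ± 0.14) and Tnni3 (-0.44 ± 0.14) fell in IMQ against Mock skin. Of 3 measured developing muscle genes (5 listed) Ncam1 fell in IMQ against Mock skin (-0.34 ± 0.09), a call lost without IMQ array 1.

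Myogenic and satellite cell genes had 7 of 11 measured, Des among them, and gave 3 higher, 1 lower in IMQ against Mock skin and 2 higher, 2 lower in Vanillin against IMQ skin. These were 42.9% and 14.3%, then 28.6% and 28.6%, against 24.0% and 29.6%, then 24.3% and 17.0% of all probes. Pax7, the transcription factor of satellite cells, was dim (25.1 percentile) and changed by 1.11 ± 0.18 in IMQ against Mock skin (adjusted p = 0.00099) and by -0.89 ± 0.18 in Vanillin against IMQ skin (adjusted p = 0.00611). Mymk, a fusion protein of myoblasts, changed by 0.87 ± 0.17 and -0.64 ± 0.17. Cdh15, the cadherin of satellite cells and myoblasts, went the opposite way, with -0.68 ± 0.08 and 0.60 ± 0.08. In Vanillin against IMQ skin, 2 of the 7 rather than 4 were called without Vanillin array 1 or 2 or IMQ array 1 or 3. These lists were chosen with results of the same arrays known.

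**Figure D4:**
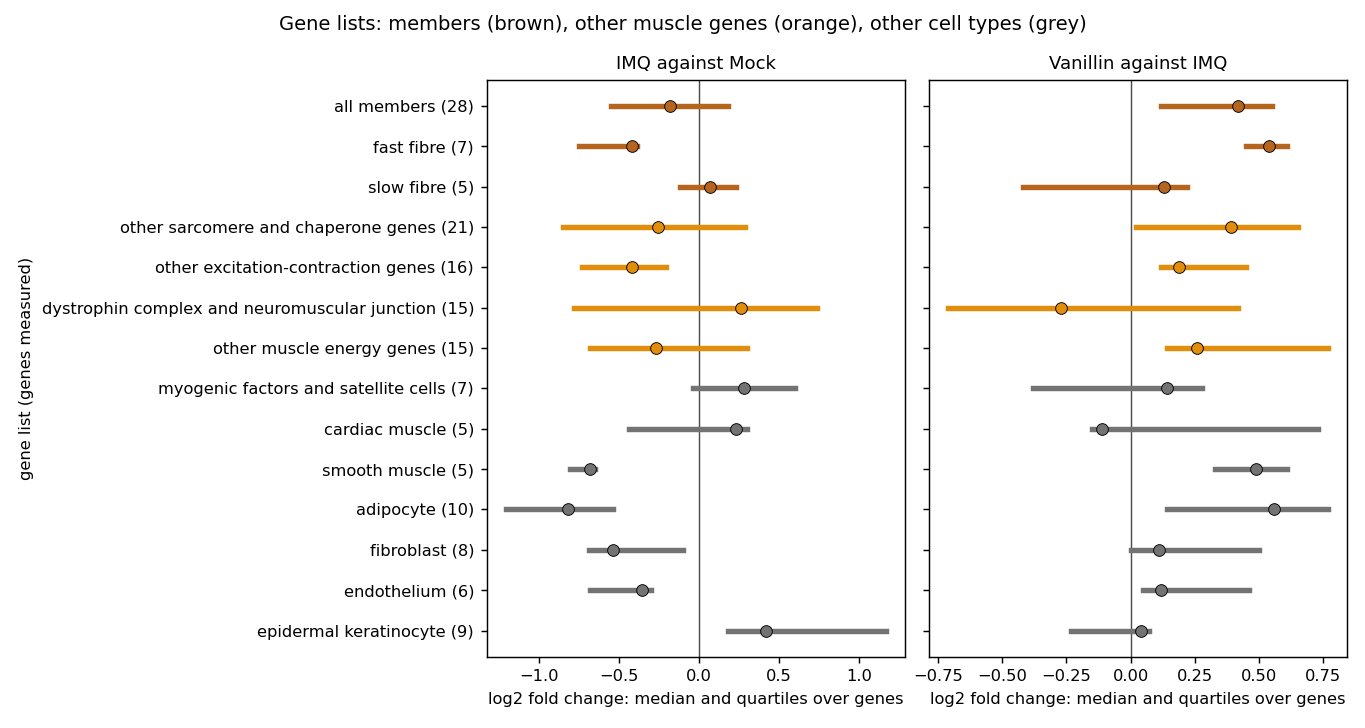
Points are medians and bars quartiles of log2 fold change over the measured genes of each list (number in brackets), in IMQ against Mock and Vanillin against IMQ skin. Fast fibre genes lie at -0.42 and 0.54 and slow fibre genes at 0.07 and 0.13, beside adipocyte markers at -0.82 and 0.56 and keratinocyte markers at 0.42 and 0.04.

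Spread differed between groups. Over the 28 genes the SD between arrays was 0.03 to 0.45 in Vanillin skin, 0.01 to 0.12 in IMQ skin and 0.02 to 0.94 in Mock skin. The fit shares its estimate of spread over the 3 groups. The values were already normalised so that all arrays had nearly the same distribution (median 9.30 on the log2 scale), which limits what can be said of a change in total RNA.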

How the data were processed

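The authors deposited one table of normalised linear intensity values for 9 one-colour (Cy5) arrays, 3 each of Vanillin, IMQ and Mock skin. Per the submitters' processing notes limma was used; its version and any background correction or filter are not stated there, and precision is limited by the number of arrays. Array distributions were nearly identical. Intensities were floored at 1 and log2 transformed. A probe-to-gene table named 20377 of 26423 probes with 1 symbol each; 18213 symbols were current, 2126 were updated and 38 kept as given. A gene's value is its brightest probe. All probes were fitted with limma 3.58.1 (lmFit and eBayes, R 4.3.3) over all 9 arrays, adjusted by Benjamini-Hochberg and called under 0.05. The script was tested on simulated data. The members and lists were chosen with earlier results of these data known. Values in every array were given for up to 5 called genes of each role with the largest change in IMQ against Mock or Vanillin against IMQ skin, for genes called against the list's median, and for genes whose probes disagreed; Tnnc2 and Tnnt3, outside this rule, were added after their values were seen, to complete the troponin pairs; of other lists, up to 3 called genes with the largest change. Same-numbered arrays did not deviate together (correlations -0.265 to 0.222), so replicate numbers were not used. Alternatives covered normalisation, dim probes, offset, prior, array weights, probe averaging, threshold and leaving out each array.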

Additional observations from a re-analysis of the deposited data

How the results depend on the processing

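Over 18 alternatives, 17, 18 and 19 of the 28 genes stayed on the same side of the threshold in IMQ against Mock, Vanillin against IMQ and Vanillin against Mock skin, and 16, 18 and 13 of these also kept their sign, those that changed sign being not called. Quantile normalisation and median centring left the count of genes called at 15, 20 and 12. Array weights raised it to 24 in IMQ against Mock skin; the cause was not tested. With the mean of a gene's probes the median change in Vanillin against IMQ skin was 0.31, and Ldb3 reversed to -0.14 in Vanillin against Mock skin. Calls after subtracting the uncentred muscle median, which removed little of the muscle shift, numbered 5 (Vanillin against IMQ) and 3 (Vanillin against Mock) at an adjusted p under 0.01, and 3 in Vanillin against Mock skin with only both groups fitted, which uses fewer arrays. Leaving out 1 array gave 14 to 18, 15 to 22 and 9 to 13 genes called, 10 to 15, 5 to 17 and 4 to 10 calls after that subtraction, median changes of -0.19 to -0.17, 0.38 to 0.44 and 0.03 to 0.09, and fast minus slow shifts of -0.61 to -0.44, 0.40 to 0.52 and -0.14 to 0.02, in the same order of comparisons. A fit with the replicate number as a block, which the labels do not show to pair the samples, called 15, 17 and 11 genes, without Tpm1, Des and Casq2 (Vanillin against IMQ) and Tnnc2 (Vanillin against Mock). With only both groups fitted Tnni1 (Vanillin against IMQ), Tnnc2 and Casq2 (Vanillin against Mock) lost their calls. Counts of the other lists moved beyond 1.5 times in 57 of 810 values. Dim probes such as that of Phka1 (22.5 percentile) limit the precision.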
